A study of Mus musculus with 52 samples.

Results

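The nuclear genes of the respiratory chain were described in single daughter cells of mouse erythroid progenitors. Members were all genes of the count tables whose symbol names a subunit, isoform, assembly factor or pseudogene of complexes I to V: the Nduf subunits of complex I, Sdha to Sdhd of complex II, the Uqc genes of complex III, Cox4 to Cox8 of complex IV and the Atp5 genes of complex V. Ndufa4 and Ndufa4l2 were counted with complex IV and Atp5sl, an assembly factor, with complex I. The rule found 93 of 49466 genes, 36 for complex I, 4 for complex II, 13 for complex III, 20 for complex IV and 20 for complex V. They comprised 20 core subunits, 53 accessory subunits, 8 isoforms known from particular tissues, 6 assembly or associated factors and 6 pseudogenes. No measured value entered the rule.

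Burst-forming unit erythroid (BFU-E) cells, progenitors committed to the red cell lineage, were sorted at E14.5 from the fetal liver of embryos of the strain C57/Bl6J after depletion of cells with surface markers that include Ly-6G, CD11b, CD16/32, CD41 and Ter119. They were placed singly in wells of a medium the labels call PCM, with 100 nM dexamethasone, a synthetic glucocorticoid, or with none. Both groups carry no genetic change that the labels name, and both spent 16 h in culture. Founders that had divided once gave 2 daughter cells, each sequenced as its own library, so that 52 libraries form 13 untreated and 13 dexamethasone pairs, written U1 to U13 and D1 to D13. No animal is named, so the replicate was the founder with its well. In comparisons of pairs the p-values measure the spread between founders that may share an embryo or a litter. In the tests of single daughter libraries they measure the spread between sisters instead.

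The respiratory chain sits in the inner mitochondrial membrane. Complexes I and II feed electrons from NADH and succinate to ubiquinone, complex III passes them to cytochrome c and complex IV to oxygen, and complex V uses the proton gradient built by complexes I, III and IV to make ATP. Most subunits are encoded in the nucleus, while the mitochondrial genome supplies core subunits of every complex other than II. Core subunits include those with the redox centres and catalytic sites, and accessory subunits surround and stabilise them. Erythroid progenitors need mitochondria for heme synthesis and lose them as red cells mature.

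The comparisons used the 23 pairs, 10 untreated and 13 dexamethasone, in which both libraries held at least 100000 counts; pairs U4, U7 and U12 were left out. Summed totals ran from 1053168 counts in U5 to 10231954 in U13. The erythroid factors Gata1 and Klf1 lay between 281 and 1756 and between 201 and 2214 CPM (counts scaled to one common library total) in 18 pairs, U1 to U3, U5, U6, U8, U11, U13, D1 to D5, D8, D9 and D11 to D13. In the other 5 pairs, U9, U10, D6, D7 and D10, both cells had higher granulocyte and monocyte than erythroid markers. Their Mpo, a granule enzyme of myeloid cells, lay between 5451 and 22182 CPM and their Gata1 between 0.778 and 95.5 CPM, which goes against the BFU-E label of every cell and the depletion before the sort. Of 15 granulocyte and monocyte markers, 8 to 10 reached 10 CPM in these pairs, against 0 to 4 in the 18. Elane, also on that list, ran from 0 CPM (D7) to 1758.5 (U9). Summed stem cell markers lay between 484.5 and 1794 CPM, against 0.409 to 399 in the 18. Only 2 to 4 of the 10 stem cell markers reached 10 CPM in these pairs, against 0 to 3 in the 18. Mllt3, the only stem cell marker kept for testing, was lower in these pairs (log2 fold change -9.45). D10 also held 62.3 CPM of Klf1 and 230 of adult globins. Among the 18, Mpo reached 522 CPM in D9 and 833 in D12. Summed mast cell and basophil markers lay between 0 and 873 CPM in the 5 pairs (median 0.198), against 0 to 24.7 in the 18. The 5 pairs, which were thus not alike in all markers, are called myeloid-like and the 18 erythroid below. Dexamethasone pair D12 also stood apart: its first cell held 210383 counts over 3886 genes, and several members sat near 0 or at very high values in it.

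Levels per transcript length are given as TPM, computed here by dividing counts by the summed exon length and scaling each pair to the same total. The summed length covers all annotated exons of a gene, which a single transcript need not hold. Rankings of members and complexes by TPM therefore depend on the lengths used. Of the 93 members, 67 reached 10 CPM in every one of the 23 pairs and 63 had a count in every one of the 46 libraries. The means over pairs were highest for 3 small or membrane-anchored subunits: Cox8a (2137 ± 704 TPM, SD, n = 23) and Cox6b1 (2104 ± 578) of complex IV, and Sdhd (1918 ± 573), which anchors complex II in the membrane. Cox4i1, the general isoform of complex IV subunit 4 (1906 ± 591), Uqcr10 of complex III (1892 ± 660) and Atp5b, the catalytic beta subunit of complex V (1711 ± 465), came next with Uqcr11 (1762 ± 709), each within 1 SD of its neighbours in this order. Among the 35 complex I subunits the means ran from 55.3 TPM (Ndufb4) to 1306 TPM (Ndufa8), with a median of 444. The medians of the subunit means were 622 TPM for complex II, 702 for complex III, 863 for complex IV and 330 for complex V. The plot of levels per length shows members with a median above 0, so Cox6b2 is its only tissue isoform. Most members of a complex lie well above the pseudogenes and Cox6b2. The median of Cox6b2 (43.1 TPM) was above those of Atp5sl (29.8), Atp5g2 (28.5), Atp5s (16.3) and Atp5l (9.83).

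**Figure D1:**
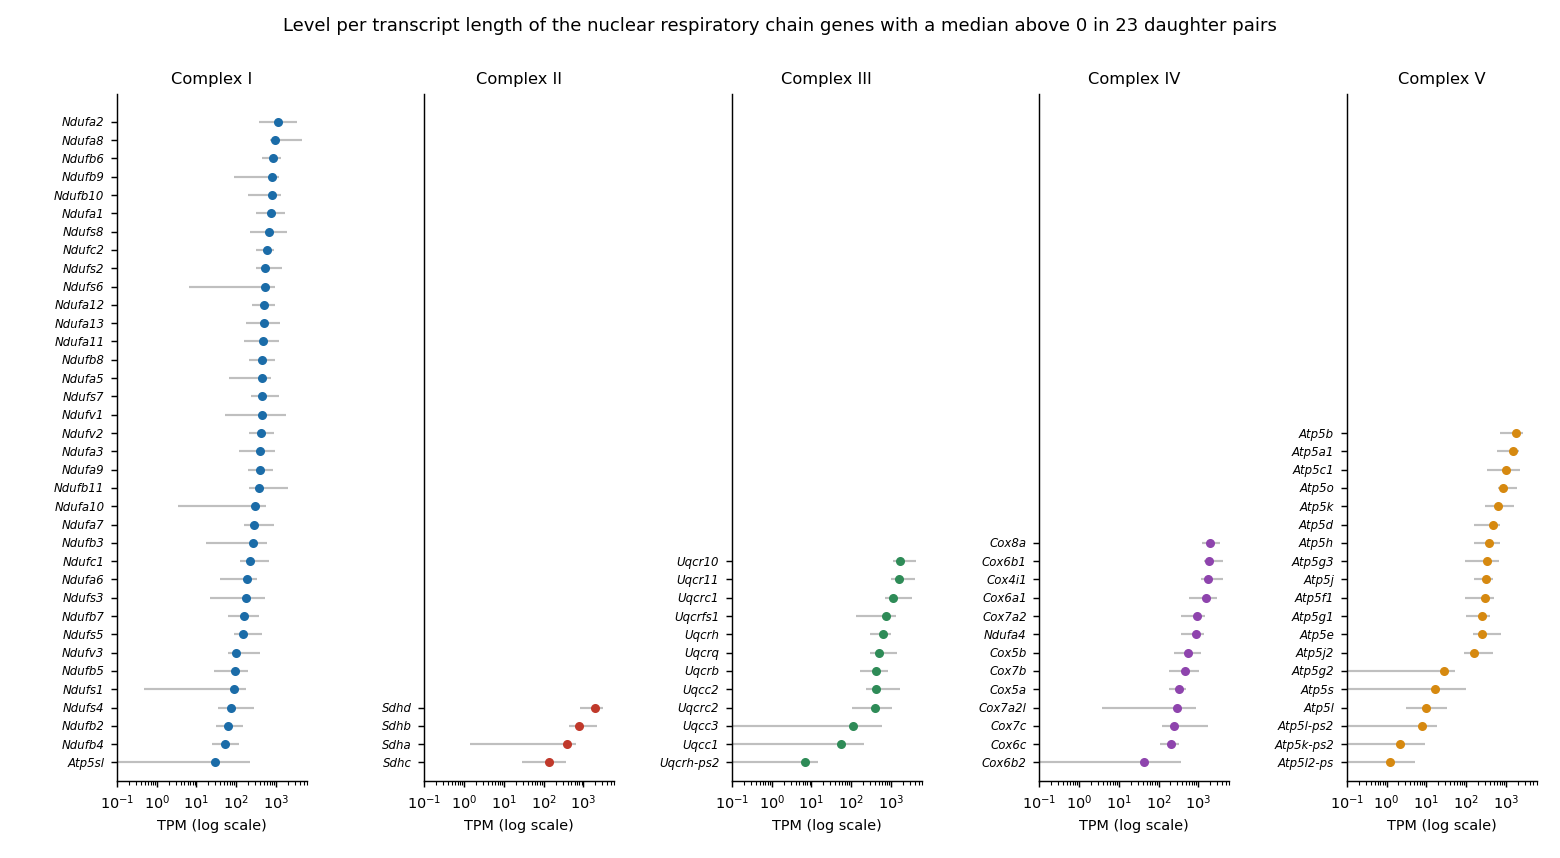
Level per transcript length of each member with a median above 0 (TPM, log axis), by complex. Points are medians and lines run from the lowest to the highest of the 23 pairs; a line that reaches the left edge includes a value of 0.1 TPM or less. Cox8a, Cox6b1, Cox4i1, Sdhd, Uqcr10 and Atp5b lie at the right edge of their panels.

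Paralogues of one position in a complex differed in level. The general isoforms Cox4i1, Cox6a1 (1642 ± 528 TPM), Cox7a2 (955 ± 285), Cox7b (525 ± 191) and Cox8a were detected in every pair. Their counterparts Cox6a2 and Cox8b of heart and muscle and Cox7b2 and Cox8c of testis had 0 counts in all 46 libraries, which together held 123904565 counts. A count of 0 in that total allows up to 3 counts, or 0.0242 CPM; this covers counting error only. Cox7a1, the heart and muscle isoform, reached 8.27 CPM at most (U11). Ndufa4l2, a relative of Ndufa4, reached 26.7 CPM in D4 and 8.34 in D5 and was at 0 in the other pairs. Cox6b2, the testis isoform of subunit 6b and the only tissue isoform that passed the filter, was at 64.6 ± 81.4 TPM beside 2104 for Cox6b1, and ran from 0 CPM in D6 and D13 to 141 in U8. Of the 3 genes for the c ring of complex V, whose mature protein is the same, Atp5g3 (330 ± 122 TPM) and Atp5g1 (250 ± 71.3) lay above Atp5g2 (27.9 ± 10.7). Without division by length Atp5g1 lay above Atp5g3, with medians of 424 and 260 CPM, and Atp5g2 was again lowest (16.1). Atp5l, Atp5k and Uqcrh have pseudogenes among the members; no source used here says how reads shared between copies were counted, so their levels are uncertain. Exons of 28 members share bases with another gene, mostly on the opposite strand, and reads there cannot be told apart either.

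Members differed in how much they varied between pairs. The coefficient of variation of the TPM over the 23 pairs was 0.221 for Atp5j, a stalk subunit of complex V, 0.232 for Cox5a, an accessory subunit of complex IV, and 0.24 for Atp5a1, the alpha subunit of complex V. It was 0.776 for Ndufb11, 0.736 for Ndufv1 and 1.01 for Cox7c. For Cox7c a single pair, D12, stood at 748 CPM while the other 22 lay between 48.6 and 214. D12 also held the lowest level of Sdha, the flavoprotein of complex II (2.09 CPM), of Ndufs1 (1.39) and of Ndufa10 (4.18); their medians over the pairs were 552, 270 and 356 CPM. Of the 93 members 80 passed the filter on low counts and were tested; the 13 others were the 6 pseudogenes, Cox4i2, Cox6a2, Cox7a1, Cox7b2, Cox8b, Cox8c and Ndufa4l2.

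Dexamethasone was compared with no treatment to ask whether the glucocorticoid moved these genes. Each plate column of the library names apart from column 6 held a single treatment, so treatment cannot be told apart from single columns. None of the 80 tested members passed the threshold (edgeR quasi-likelihood test with Benjamini-Hochberg adjustment over 7190 genes, adjusted p under 0.05), and 0% of all tested genes did. At an unadjusted p under 0.05 the counts were 1 member and 71 genes, and DESeq2 also called 0 genes at its adjusted threshold. The summed subunit transcripts overlapped for every complex. Complex I ran from 5660 to 10040 CPM (median 7023) in untreated pairs and from 6378 to 14533 (median 7955) in dexamethasone pairs. Complex V ran from 7471 to 10098 CPM without and from 7243 to 9634 with dexamethasone. The median log2 fold change was 0.10 over members and 0.02 over all tested genes. Of the members 54 lay above 0 and 26 below, and of all tested genes 51.4% lay above 0. Without D10 the median over members was -0.01 with 40 members on each side of 0, and without U9 it was 0.19.

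Ndufv1 encodes the subunit of complex I that binds FMN and takes electrons from NADH. It lay between 54.6 and 514 CPM (median 319) in untreated pairs and between 117 and 1777 (median 415) in dexamethasone pairs. The groups overlapped, and the 4 highest pairs, D13 (747 CPM), D10 (879), D9 (983) and D12 (1777), were all dexamethasone pairs of plate columns 5 to 7, the columns of the library names described below. The cells of D12 held 23.8 and 2078 CPM. Its log2 fold change was 0.99 ± 0.40 (SE), with an edgeR p of 0.0212 and an adjusted p of 1.00, and 10 of 13 dexamethasone pairs lay above the untreated median. Without D12 it was 0.67 ± 0.35. The fold was -0.05 within columns 1 to 4 and 2.16 within columns 5 to 7, where 4 untreated pairs were compared with 5. Of those, 2 of the 4 untreated pairs (U9, U10) and 1 of the 5 dexamethasone pairs (D10) were myeloid-like, and the same interaction had a median of -8.86 over 3 granulocyte and monocyte markers, 5.80 over 4 adult globins and 1.36 over 14 erythroid markers. Their part in the Ndufv1 difference was not tested. The test of that difference, an interaction term, gave 2.17 ± 0.64 with p = 0.00255 and an edgeR adjusted p of 0.353; this term called 0 members and 0% of all genes. DESeq2 gave the same term for Ndufv1 an adjusted p of 0.0288, 1 of 80 members and 2.2% of all genes. Several core and general members had differences smaller than their SE: Uqcrc1 (0.10 ± 0.29), Cox4i1 (0.10 ± 0.25), Atp5b (-0.04 ± 0.16) and Sdha (-0.14 ± 0.45), none of which passed the edgeR test (adjusted p of 1.00 each). In the other respiratory lists 0 of 8 tested mitochondrially encoded subunits, 0 of 39 assembly factors, 0 of 12 regulators of mitochondrial genes and 0 of 17 enzymes of the TCA cycle passed (edgeR).

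Myeloid-like pairs were compared with erythroid pairs, with treatment in the model, to ask whether the chain differs between the lineages. In all, 7 of 80 members rose in the myeloid-like pairs and 0 fell (edgeR quasi-likelihood test, Benjamini-Hochberg adjustment over all genes). Over all genes 2.34% passed, and 1.04% were higher. The filter on low counts used the treatment groups, not the lineage classes. It kept 3 of 15 granulocyte and monocyte markers and 14 of 15 erythroid markers, so genes found mainly in the myeloid-like pairs are scarce among those tested. With no filter 604 genes were higher and 135 lower, of 18628. Of the 7, 4 belong to complex I (Ndufb11, Ndufs8, Ndufa7, Ndufb7), 2 to complex IV (Ndufa4, Cox4i1) and 1 to complex V (Atp5j2), and 6 of them are accessory subunits. Of the members 70 had a log2 fold change above 0 and 10 below, and of all genes 51.1% were above 0. The median log2 fold change was 0.54 over members and 0.03 over all genes. It was 0.66 for the 53 accessory and 0.15 for the 20 core subunits.

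Ndufa4, an accessory subunit now placed in complex IV, was at 569 CPM in D7, 586 in U9, 616 in D6, 641 in U10 and 817 in D10. In the 18 erythroid pairs it lay between 196 and 488 CPM (median 375). Its groups did not overlap, as for 0.626% of all tested genes (0.403% higher in every myeloid-like pair), and it was the 1 member of 80 of which that held. Its log2 fold change was 1.11 ± 0.20 (edgeR adjusted p = 0.00309). Ndufs8, a core subunit of complex I that carries iron-sulfur clusters, ran from 315 CPM (D7) to 1031 (D10, median 545) in the myeloid-like pairs and from 103 to 634 (median 274) in the erythroid pairs, with a log2 fold change of 1.40 ± 0.33 (edgeR adjusted p = 0.0239). Here the groups overlapped, with D6, D7 and U10 within the erythroid range. Ndufb11, of the membrane arm of complex I, ran from 110 CPM (D6) to 786 (D10, median 281) against 63.4 to 240 (median 113), a log2 fold change of 1.70 ± 0.37 (edgeR adjusted p = 0.0137). Cox4i1 ran from 825 CPM (D6) to 2690 (D10, median 1381) against 655 to 1389 (median 933), a log2 fold change of 0.89 ± 0.22 (edgeR adjusted p = 0.03). The other 3 were Ndufa7 (1.35 ± 0.33), Ndufb7 (1.29 ± 0.33) and Atp5j2 (1.19 ± 0.32), with edgeR adjusted p between 0.0272 and 0.0498. In the plot of levels by lineage class U9 and D10 of columns 5 to 7 lie at the top for Ndufs8 and Cox4i1, and D6 and D7 of columns 1 to 4 lie lower.

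**Figure D2:**
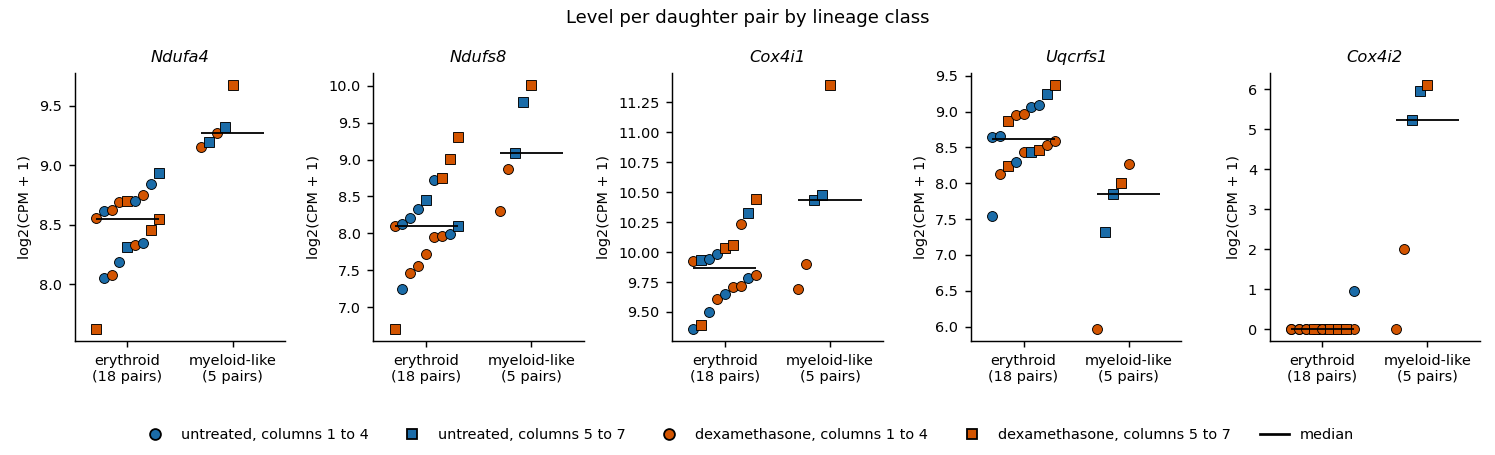
Level of 5 members in each daughter pair, as log2(CPM + 1), by lineage class; colours mark the treatment, circles and squares the plate columns, and lines the medians. All 5 myeloid-like pairs lie above all 18 erythroid pairs for Ndufa4, and Cox4i2 is above 30 CPM only in U9, U10 and D10.

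Cox4i2, the isoform of subunit 4 known from lung and from cells at low oxygen, failed the filter on low counts because most pairs held none. It was at 36.3 CPM in U9, 60.9 in U10 and 67.9 in D10, all myeloid-like pairs of columns 5 to 7. D7 held 2.97 CPM and D6 held 0, while among the erythroid pairs only U5 held any (0.95 CPM, 1 count). In U9 and U10 all reads came from 1 daughter, with 64.4 and 98.6 CPM in cell 2 and 0 in cell 1, whereas D10 had 97.9 and 41.0 CPM. With no filter on low counts edgeR called it (adjusted p = 2.79e-05), among 7 members and 3.97% of all genes.

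Members lower in myeloid-like pairs did not pass the test. The closest was Uqcrfs1, the Rieske iron-sulfur subunit of complex III, at 61.5 to 308 CPM (median 230) against 186 to 661 (median 390), a log2 difference of -0.79 ± 0.33 (edgeR adjusted p = 0.237). Sdhd differed by -0.44 ± 0.23 (edgeR adjusted p = 0.412) and Ndufs3, a core subunit of complex I, by -0.88 ± 0.45 (edgeR adjusted p = 0.392). Of the subunits that carry out catalysis in complex V, Atp5b differed by 0.03 ± 0.19 and Atp5a1 by 0.10 ± 0.22. Among the other lists, 3 of 17 glycolysis enzymes rose (Pgam1, Aldoa and Pkm) and 2 fell (Pklr and Hk1), 1 of 17 TCA cycle enzymes rose (Idh2), and 0 of 8 mitochondrially encoded subunits and 0 of 39 assembly factors passed. Pklr is the pyruvate kinase of red cells and liver, and Pkm, which rose by 1.56 ± 0.42 on the log2 scale, that of most other cells.

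The lineage calls rested on few pairs. With the plate column set in the model 3 members remained (Ndufs8, Ndufb7, Ndufa4; 2.16% of all genes), without U9 2 (Ndufa4, Ndufb11; 1.15%) and without D10 2, of which 1 was among the 7 (Ndufa4, with Atp5c1 added; 3.46%), while untreated pairs alone gave 10, of which 6 were among the 7 (7.54%), and dexamethasone pairs alone 0 (0%). DESeq2 called all 7 and 4 more (10.3%, 171 genes higher and 566 lower against 75 and 93 by edgeR). Ndufa4 alone passed in the full fit, in each fit that left out 1 myeloid-like pair and with the plate columns in the model; within columns 1 to 4 alone, where D6 and D7 are the myeloid-like pairs, and within columns 5 to 7 alone it did not (edgeR adjusted p = 0.0914 and 0.778).

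Globin transcripts mark how far an erythroid cell has matured, and the 18 erythroid pairs ranged from 2.81 CPM (D8) to 9298 CPM (D9) of adult globins. None of the 80 members had a slope on log2 globin that passed (edgeR quasi-likelihood test; 0.0676% of all genes, 5 genes, passed, and 3 of these are adult globins, which define the globin level). At an unadjusted p under 0.05 there were 2 of 80 members and 271 of 7398 genes, so that the members were no more frequent than all genes. They were Ndufv1, with 0.17 ± 0.08 log2 units per doubling of globin, and Uqcrq, with 0.12 ± 0.06. DESeq2 called 0 members too. The median slope was 0.04 over members and 0.00 over all genes, with 59 members and 50.8% of all genes above 0. Without D12 the member median was 0.014 (46 above 0), without D8 0.015 (48 above 0) and without D9 0.02 (52 above 0). Across the 18 pairs, as a description, Pearson's r between log2 globin and the log2 sum of a complex was 0.036 for complexes I and II, 0.176 for III, 0.138 for IV and 0.18 for V. Without D8, the pair with hardly any globin, it lay between -0.052 (III) and 0.035 (I). The sum and globin share each pair's total count.

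The label of each library holds a plate position, a column number and a row letter; libraries of a column share their first index. Columns 1 to 4 hold 6 untreated and 8 dexamethasone pairs, and columns 5 to 7 hold 4 and 5. Columns 1, 2 and 5 hold only untreated pairs and columns 3, 4 and 7 only dexamethasone pairs. Column 6, with U13 and D9, is the only column with both treatments. No source used here says what else differed between the columns. With treatment in the model, 15 of 80 members rose in columns 5 to 7 and 0 fell (edgeR quasi-likelihood test, Benjamini-Hochberg adjustment over all genes). Of all genes 1.2% passed, 1.03% upward. The 15 were 7 of 36 in complex I (Ndufb8, Ndufa8, Ndufb7, Ndufa13, Ndufa12, Ndufb11, Ndufa2), 1 of 4 in complex II (Sdhb), 4 of 11 in complex III (Uqcrq, Uqcr10, Uqcrc1, Uqcr11), 2 of 13 in complex IV (Cox7c, Cox4i1) and 1 of 16 in complex V (Atp5o, which links the catalytic head to the peripheral stalk). Accessory subunits made up 14 of them, of 53 tested, and core subunits 1, Sdhb, of 20. None of the 7 core subunits of complex I passed. The median log2 fold change was 0.56 over members and -0.02 over all genes. Of the members 72 lay above 0 and 8 below, and of all genes 48.8% lay above 0.

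Uqcrq, a small accessory subunit of complex III, lay between 188 and 410 CPM (median 269) in columns 1 to 4 and between 354 and 1006 (median 553) in columns 5 to 7. All 9 pairs of columns 5 to 7 were above the median of columns 1 to 4, and only D11 and U13 of them lay below D5, the highest of columns 1 to 4. Its log2 fold change was 1.33 ± 0.19 (edgeR adjusted p = 0.000767). Uqcr10, also of complex III, ran from 225 to 417 CPM (median 291) against 406 to 1032 (median 494), a log2 fold change of 1.04 ± 0.19 (edgeR adjusted p = 0.0049), and D10 held the highest value. Uqcrc1, the large matrix-facing core protein counted among the accessory subunits, split columns 5 to 7. It was at 2309 to 4961 CPM in U9, U10, U13, D9, D11 and D13 and at 1113 to 1515 in U11, D10 and D12, where columns 1 to 4 held 1213 to 1787; its log2 fold change was 1.04 ± 0.21 (edgeR adjusted p = 0.0104). Ndufa8, an accessory subunit of complex I, ran from 203 to 417 CPM (median 270) against 254 to 1432 (median 521), a log2 fold change of 1.26 ± 0.25 (edgeR adjusted p = 0.0101). Ndufb8, of the membrane arm, ran from 225 to 515 CPM (median 408) against 484 to 1064 (median 653), a log2 fold change of 1.06 ± 0.20 (edgeR adjusted p = 0.00764). Sdhb, the iron-sulfur subunit of complex II, ran from 339 to 789 CPM (median 546) against 378 to 1810 (median 970), a log2 fold change of 0.95 ± 0.20 (edgeR adjusted p = 0.0157), while Sdha, Sdhc and Sdhd did not pass (-0.58 ± 0.46, 0.44 ± 0.39 and 0.25 ± 0.19). The other 9 had log2 fold changes from 0.79 ± 0.19 (Cox4i1) to 1.57 ± 0.37 (Cox7c), with edgeR adjusted p between 0.0145 and 0.0343.

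**Figure D3:**
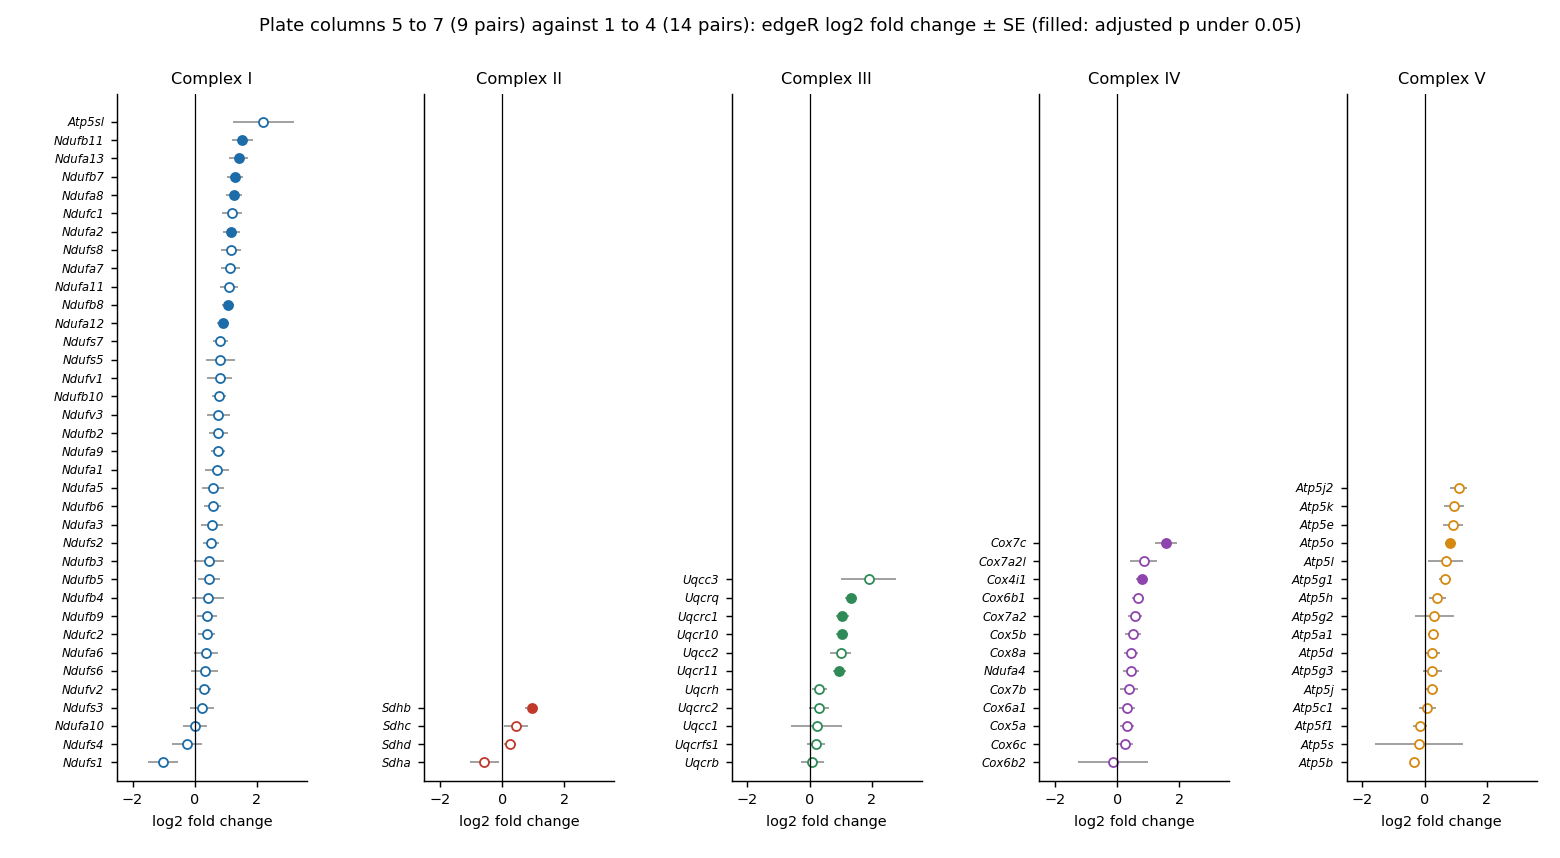
Log2 fold change of each tested member, plate columns 5 to 7 against 1 to 4, with its SE (edgeR, treatment in the model), by complex; filled points have an adjusted p under 0.05. The 15 filled points lie right of 0, 7 of them in complex I and 4 of 11 in complex III, and Ndufs1 and Atp5b lie left of 0 without passing.

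Members lower in columns 5 to 7 did not pass the edgeR test. Atp5b ran from 2339 to 3936 CPM in columns 1 to 4 and from 1135 to 2816 in columns 5 to 7, a log2 difference of -0.34 ± 0.14 (edgeR adjusted p = 0.325; DESeq2 called it lower). Ndufs1, the largest core subunit of complex I, ran from 90.4 to 491 CPM against 1.39 to 295 (-1.02 ± 0.47, edgeR adjusted p = 0.421). In sums over subunits, complex I ran from 5660 to 7976 CPM in columns 1 to 4 and from 7636 to 14533 in columns 5 to 7, and complex III from 3004 to 4399 against 4010 to 7331. For each, a single pair of columns 5 to 7 lay within the range of columns 1 to 4: U13 for complex I and D12 for complex III. Complexes II, IV and V overlapped, complex V almost wholly (7243 to 10098 against 7330 to 9634 CPM).

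**Figure D4:**
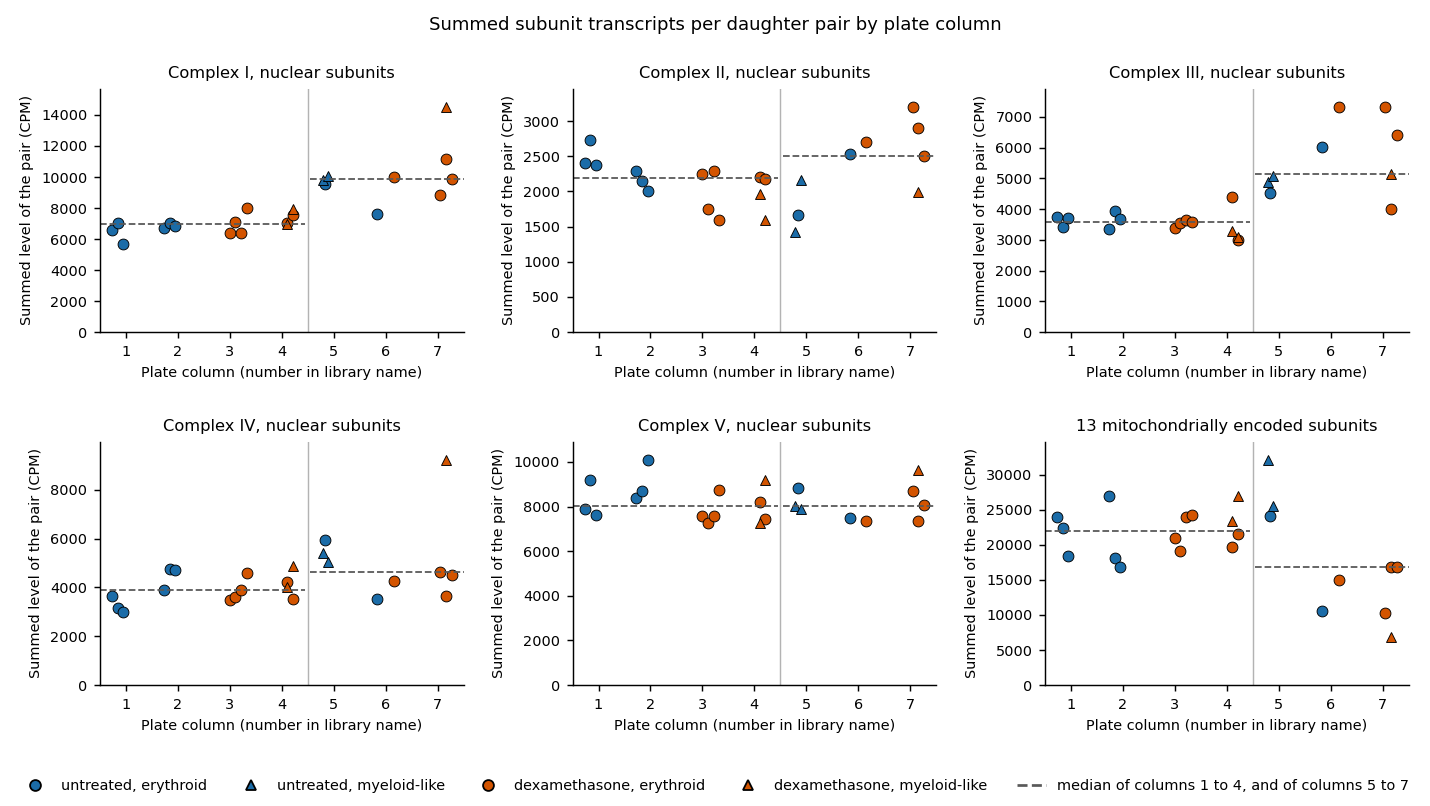
Summed CPM of the nuclear subunits of each complex, and of the 13 mitochondrially encoded subunits, in each of 23 daughter pairs by plate column. The sums of complexes I and III are higher in columns 5 to 7, complex V is level, and the mitochondrially encoded sum is lower in columns 6 and 7 but not in column 5.

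Of the mitochondrially encoded subunits, 3 of 8 tested fell in columns 5 to 7: mt-Co1 by 1.41 ± 0.28 on the log2 scale, mt-Nd5 by 1.30 ± 0.29 and mt-Nd1 by 0.75 ± 0.19 (edgeR adjusted p = 0.0101, 0.0212 and 0.0472). Of the 8, 7 lay below 0 and 1 above, mt-Cytb, at 0.72 ± 0.26 (edgeR adjusted p = 0.226). The sum over all 13 ran from 16783 to 27029 CPM in columns 1 to 4 and from 24046 to 32137 in the 3 pairs of column 5, but from 6908 to 16856 in the 6 pairs of columns 6 and 7. Column 5 holds only untreated pairs (U9, U10, U11, of which U9 and U10 are myeloid-like), and 5 of the 6 pairs of columns 6 and 7 had dexamethasone, so column, treatment and lineage cannot be told apart here. The complex I sum was high in both of these column groups, at 9543 to 10040 CPM in column 5 and 7636 to 14533 in columns 6 and 7. Other lists held few calls: Mdh2 of 17 TCA cycle enzymes (0.94 ± 0.15), Timm13 and Phb of 26 import and inner membrane genes (0.96 ± 0.22 and 1.24 ± 0.25) and Atpaf2 of 39 assembly factors (1.58 ± 0.39) rose. None of 12 regulators of mitochondrial genes passed. Their median log2 fold change was -1.08, with 10 below 0 and 2 above. The estimates were imprecise, with SE from 0.78 (Pprc1) to 2.84 (Tfb1m).

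Transcript length and level moved with the same contrast. Among tested genes other than members, the median log2 fold change was 0.42 for exon lengths up to 1 kb (440 genes) and -0.32 above 4 kb (3802 genes); for members it was 0.72 (19 genes) and 0.45 (11 genes). Among genes with a mean above 9 log2 CPM, 10.6% of 301 others and 41.7% of 12 members passed, and up to 7 log2 CPM 0.269% and 0%. The 78 tested mitochondrial ribosomal proteins had a median of 0.59, with 3 called. The part of length and level in the members' rise was not tested. Columns 5 to 7 also hold 3 of the 5 myeloid-like pairs, and the summed granulocyte and monocyte markers had a median of 558 CPM there against 30.9 in columns 1 to 4. With the lineage class in the model 11 of the 15 remained (1.17% of all genes). In the 18 erythroid pairs alone 0 members passed (0.122% of all genes), and the median log2 fold change over members was 0.36, against 0.56 in all 23 pairs. The log2 fold changes were 1.05 ± 0.21 for Uqcrq (edgeR adjusted p = 0.0549), 1.16 ± 0.24 for Uqcrc1 (0.0564) and 1.33 ± 0.29 for Ndufa8 (0.0622).

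Scaling moved the count. With RLE scaling, which lowered the median of all genes from -0.02 to -0.15, 7 members rose (0.598% of all genes, 32 higher and 11 lower against 74 and 12 with TMM), and with no filter on low counts also 7 (0.424%). DESeq2 called 20 members higher and 1 lower (4.77% of all genes, 124 higher and 219 lower), while untreated pairs alone (0%) and dexamethasone pairs alone (0.153%) gave 0 members each. In the 23 fits that left out 1 pair, 9 members passed every time (Uqcrq, Uqcr10, Uqcr11, Uqcrc1, Ndufb8, Ndufa8, Ndufb7, Ndufa13, Ndufa12); Cox4i1 passed in 14, and Cox7c did not pass without D12 (edgeR adjusted p = 0.139).

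Windows at the gene starts were searched for motifs of factors known to bind genes of the respiratory chain. The windows run from 250 bases before to 50 after the RefSeq gene start (GRCm38.p6) and were present for 69 members as 74 windows. The core of NRF1, a factor named for its part in nuclear respiratory genes (GCGCATGC or, on the other strand, GCATGCGC), was in 10 of 74 member windows (13.5%), in 6.56% of 6919 windows of tested genes and in 2.71% of all 32851 windows. The core of ETS factors (CCGGAAGT or ACTTCCGG), which include GABPA, was in 6.76% of member windows and 10.8% of windows of tested genes, and the YY1 core (AAGATGGCG or CGCCATCTT) in 9.46% and 4.26%. Of the 12 windows of members called by plate column, 4 held the NRF1 core, 1 the ETS core and 0 the YY1 core. The 4 with the NRF1 core are shown 5′ to 3′ on the gene's strand, as examples of members that were each higher in columns 5 to 7, though not in the same pairs, with the NRF1 and ETS cores in capitals: Uqcrc1 (chr9:108936398-108936697, + strand), Ndufa8 (chr2:36049289-36049588, - strand), Sdhb (chr4:140961021-140961320, + strand) and Uqcr11 (chr10:80406772-80407071, - strand).
Uqcrc1: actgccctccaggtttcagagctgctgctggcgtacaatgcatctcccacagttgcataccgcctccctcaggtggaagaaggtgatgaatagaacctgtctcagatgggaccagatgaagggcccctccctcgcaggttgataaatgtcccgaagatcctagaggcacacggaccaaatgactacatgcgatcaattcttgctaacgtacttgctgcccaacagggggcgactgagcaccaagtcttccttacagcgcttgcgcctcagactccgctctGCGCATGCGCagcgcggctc
Ndufa8: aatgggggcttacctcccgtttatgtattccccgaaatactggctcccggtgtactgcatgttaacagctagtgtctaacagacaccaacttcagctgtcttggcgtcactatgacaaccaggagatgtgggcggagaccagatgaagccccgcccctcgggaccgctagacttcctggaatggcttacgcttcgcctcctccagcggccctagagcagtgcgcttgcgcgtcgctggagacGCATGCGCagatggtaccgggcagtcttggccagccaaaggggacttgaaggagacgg
Sdhb: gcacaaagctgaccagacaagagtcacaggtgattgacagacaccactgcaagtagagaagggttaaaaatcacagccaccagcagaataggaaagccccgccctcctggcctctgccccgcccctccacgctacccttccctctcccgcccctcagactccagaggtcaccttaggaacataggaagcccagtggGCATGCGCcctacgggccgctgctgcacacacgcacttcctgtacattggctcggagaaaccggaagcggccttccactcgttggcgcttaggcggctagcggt
Uqcr11: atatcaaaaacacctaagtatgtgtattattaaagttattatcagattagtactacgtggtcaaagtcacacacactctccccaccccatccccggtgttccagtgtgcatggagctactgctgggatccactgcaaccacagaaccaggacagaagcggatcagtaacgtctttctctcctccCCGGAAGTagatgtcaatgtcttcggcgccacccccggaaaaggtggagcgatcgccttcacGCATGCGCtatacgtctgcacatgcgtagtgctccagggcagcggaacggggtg
In Uqcrc1 a match on each strand overlaps into 1 run. Uqcr11 holds the only ETS core of the 4 windows. A match describes the letters and shows no binding; a window without one says nothing of the factor.

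The daughters of a founder were compared to ask whether sisters resemble each other more than cells of other founders. The test of all pair terms within treatment called 12 of 80 members and 3.38% of all genes (edgeR quasi-likelihood test, Benjamini-Hochberg adjustment, 8015 genes that reached 5 counts in 10 or more libraries). Without D12, 10 of the 12 did not pass. In the first cell of D12, Cox7c was at 4554 CPM (958 counts) and in the second at 94.0 (115 counts), where the pair-summed values of the other 22 pairs ended at 214 CPM. Sdhb was at 6103 and 1071 CPM, Ndufa8 at 4154 and 963, and Ndufb5, an accessory subunit of complex I, at 2495 and 0. Other members ran the other way: Uqcrc1 was at 109 CPM (23 counts) in the first cell and 1757 in the second, and Cox4i1 at 80.8 and 771.

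Without D12 the test called 4 members and 1.81% of all genes: Uqcrc1 (edgeR adjusted p = 0.00201), Ndufb7 (0.0209), Cox4i1 (0.0317) and Ndufa13 (0.0474). Only Uqcrc1 and Ndufb7 were among the 12, and the other 10 had edgeR adjusted p between 0.237 and 1.00. The sisters of D11 held 7135 and 3518 CPM of Uqcrc1, those of U13 3782 and 3733 and those of D9 3308 and 5461, whereas those of U11 held 854 and 1331 and those of D4 987 and 1490. Over the 22 pairs the sisters differed in Uqcrc1 by 0.57 ± 0.35 log2 units (mean ± SD, of log2(CPM + 1)) and cells of different founders of a treatment by 0.83, or by 0.63 within a plate column. For Ndufb7 the values were 0.41 ± 0.26, 0.90 and 0.59, and for Cox4i1 0.42 ± 0.32, 0.54 and 0.41. Tested within plate columns, 3 members passed with D12 (Cox7c, Sdhb and Ndufa8; 1.16% of all genes) and 0 without it (0.762%). On log2 CPM limma called 0 members with all pairs (8.12% of all genes) and 3 without D12 (Uqcrc1, Ndufb7 and Ndufa13; 7.55%).

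**Figure D5:**
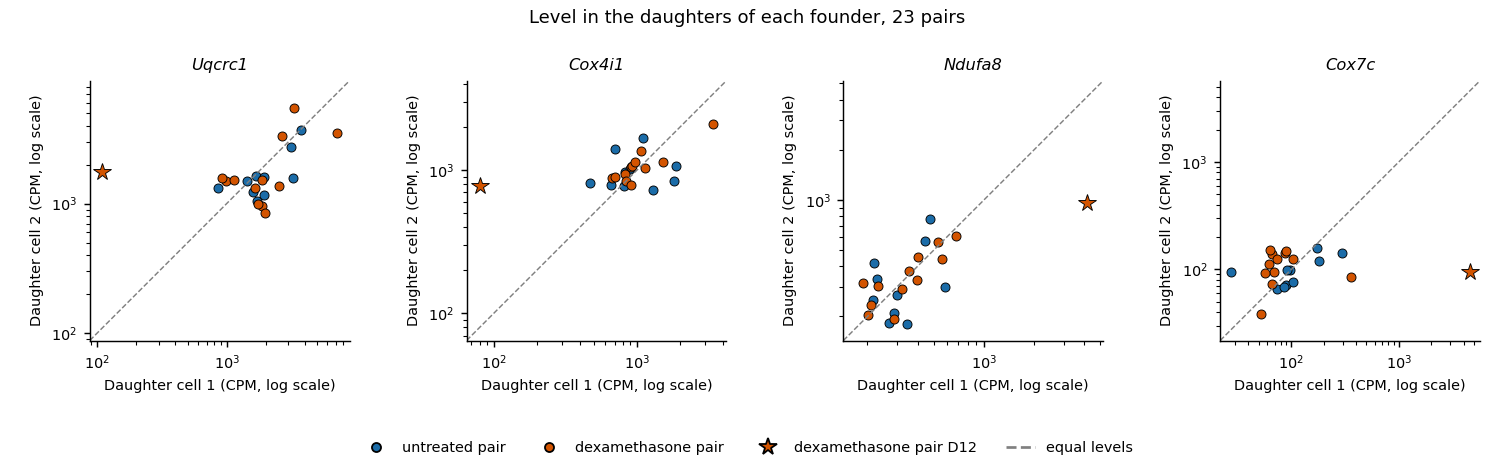
Level of 4 members in daughter cell 1 against daughter cell 2 (CPM, log axes) in 23 pairs; the dashed line marks equal levels and the star marks D12. Uqcrc1 lies along the line apart from D12, at 109 and 1757 CPM, and Cox7c of D12 lies far to the right, at 4554 and 94.0 CPM.

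For the sum over a complex, sisters differed by 0.24 ± 0.24 log2 units in complex I (22 pairs without D12) and cells of different founders by 0.38, or by 0.23 within a plate column. In complex III the values were 0.31 ± 0.20, 0.51 and 0.27, and in complex V 0.29 ± 0.25, 0.27 and 0.25. With D12 the mean of complex III rose to 0.48, since the sum of that complex was 252 CPM in its first cell and 4656 in the second. With D12 included, the ratio of the difference between founders to that between sisters had a median of 1.16 over members and 1.16 over all tested genes. Without D12 the medians were 1.137 and 1.145. The first and second cell of a pair, which differ in plate row, were compared in the same libraries: edgeR called 0 members and 0% of all genes, with 2 members and 267 genes at an unadjusted p under 0.05, and limma called 0 too.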

How the data were processed

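Single daughter cells were sequenced as polyA RNA. Per the submitters' processing notes, reads were aligned with STAR 2.4 to GRCm38 and counted with featureCounts; no source used here gives the strand and multi-mapping settings. The deposited values are raw counts per gene, without molecular identifiers. Here the counts of 2 daughters were summed per pair, and the comparisons used 23 pairs whose libraries each held 100000 counts or more (4 libraries did not). Library totals limit precision, and without molecular identifiers a share of counts also carries noise of capture and amplification, which no interval here covers.

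Genes were kept with edgeR's filterByExpr (minimum count 10, minimum total 15), scaled by TMM and tested with edgeR 4.0.16 (quasi-likelihood, Benjamini-Hochberg over all genes, adjusted p under 0.05), in R 4.3.3. The lineage, plate column and globin models held treatment as a term. Lineage class compared mean log2(CPM + 1) of granulocyte and monocyte with that of erythroid markers; no member is on either list. The daughter test fitted 1 term per pair within treatment on libraries, over genes that reached 5 counts in 10 or more libraries. TPM used summed exon lengths of GENCODE M21. Alternatives were RLE scaling, no filter, DESeq2 1.42.0, limma 3.58.1, subsets, covariates and leaving out pairs. The model code was tested on simulated counts first.

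Named members are those with the 5 smallest p in each direction of a comparison and a fixed set of core subunits and isoforms; Ndufb5, Ndufa10, Ndufa4l2, Cox7c, Cox4i2, Cox6b1, Uqcr11 and Ndufb4 were otherwise named after their values were seen. Members and lists were chosen with earlier results of these data known. Promoters are RefSeq windows of GRCm38.p6.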

Additional observations from a re-analysis of the deposited data

Results flagged for a closer look

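The untreated pairs (10), the pairs of columns 5 to 7 (9) and the myeloid-like pairs (5) were searched for a single pair far from the others. The search covered the sums of complexes I to V and the members called in any comparison above. Of 87 combinations with a group, 7 met the criterion. The members were chosen by calls in these same data and the groups share pairs, so a chance rate of 1 in 20 does not apply. Cox7c in columns 5 to 7 was at 748 CPM in D12, with the next pair at 214; its cells held 958 and 115 counts. Uqcr10 in the same columns was at 1032 CPM in D10, with the next at 536. Atp5a1 was at 705 CPM in U11, the lowest of the untreated pairs (next 1567) and of columns 5 to 7 (next 1447). Untreated pair U3 was low for Ndufa2, an accessory subunit of complex I, at 71.9 CPM (next 163), and for Ndufb5 at 45.8 CPM (next 114). Ndufa12 was at 137 CPM in D6, the lowest of the myeloid-like pairs (next 296).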

How the results depend on the processing

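The count of members called was 0 for dexamethasone, for globin and for the cell number of the pair under every alternative run. For lineage (7 members) it was 11 by DESeq2, 3 with the plate column set as covariate, 1 in columns 1 to 4 alone (Ndufa5, lower; 227 of 7789 genes called), 0 in columns 5 to 7 alone (5 of 6340), 0 in dexamethasone pairs alone and 10 in untreated pairs alone (542 of 7190), 1 without D8 and D10 (252 of 6845), and 2 to 10 when each myeloid-like pair was left out in turn. For plate columns (15 members) it was 7 with RLE scaling, 7 with no filter, 0 in erythroid pairs, 1 in erythroid pairs with globin as covariate (16 of 7398), 0 in untreated pairs alone, 0 in dexamethasone pairs alone, and 10 (without U9) to 20 (without D7) when each pair was left out. For treatment by plate column (0 members) it was 1 by DESeq2. For sharing between daughters (12 members) it was 3 within columns, 0 by limma, 2 by limma in erythroid pairs (362 of 7466), 4 without D12, 3 without D12 by limma, 0 without D12 within columns and 1 in erythroid pairs without D12 (34 of 7439). Smaller sets of pairs hold fewer samples; the cause of the other changes was not tested. The 7 lineage and 15 plate column members kept their direction under each alternative run; Ndufa5, called lower only in columns 1 to 4, had log2 values from -2.40 to 0.54 over the lineage fits. Most of the covariate and subset fits and all fits without D12 for daughters were chosen after seeing the data. Libraries of different depth limit what a low member can show, and U5 held the lowest pair total.

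Pair numbers are shared by the 2 treatments for 10 numbers. Their deviations from the treatment means had correlations between -0.11 and 0.13 (median 0.05), 2 of 10 were over 0.1 and 1 number correlated best with itself. Whether pairs of the same number share an embryo or a litter was not tested. With the pair number as a replicate block 0 members were called, and the log2 fold change of Ndufv1 was 0.58.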
